A study of Mus musculus with 9 samples.

Results

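The cytosolic ribosomal protein genes encode the proteins of the large (60S) and small (40S) subunits of the ribosome that translates nuclear-encoded mRNA. Members were the protein-coding genes whose mouse symbol is Rpl or Rps with a number and at most 1 of the letters a, l, x and y, together with Rplp0, Rplp1, Rplp2 and Rpsa. Pseudogene rows and S6 kinase genes were left out. Of 83 genes with such a symbol, Rpl6l and Rps4l are not protein-coding, which left 81 members among the 53715 rows of the count table, 50 for the large and 31 for the small subunit. The rule used names only and no measured value. It misses some ribosomal proteins because of how they are named (Rps3a1, Fau and Rack1 among them), and these are described separately.

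The libraries were bulk RNA-seq from thymocytes of C57BL/6 mice aged 6 to 8 weeks. The cells had been sorted by flow cytometry as TCRβ+, CD69+, CD24+, CD4+ and CD8+. The 3 WT samples were compared with 2 SRSF1KO samples of genotype Srsf1fl/flLckcre/+, in which Cre under the Lck promoter acts in the T cell lineage from early thymocytes on. SRSF1 belongs to the SR proteins, which bind pre-mRNA and guide its splicing. Whether replicates came from separate animals is not given in the labels, and the p-values therefore reflect the spread among these 5 samples alone, which may be technical.

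In background terms, a ribosome takes up 1 copy of nearly every ribosomal protein, and the genes of both subunits are transcribed at high levels in dividing cells. Their mRNAs begin with a run of pyrimidines, the 5′ terminal oligopyrimidine (TOP) motif, through which the kinase mTOR and the RNA-binding protein LARP1 control translation and mRNA stability together. In thymocytes the large subunit protein Rpl22 is known for its need in αβ T cell development, and many ribosomal proteins act on p53 when ribosome assembly is disturbed.

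The region around the annotated start was read from RefSeq (GRCm38.p6) for 61 of the 81 members. A run of C and T of at least 6 bases on the gene's strand, touching the 5 bases on either side of the start, was found for 32 of them, or 52.5%, against 23.0% of 27025 genes. Where a gene had several starts, the one with the longest run was used, for members and for all genes. The following windows run from 30 bases before to 20 bases after the start, 5′ to 3′ on the gene's strand. Capitals mark the longest run of C and T touching the bases around the start. In Rps7 (5 bases), Rplp0 (4 bases) and Rpl22 (4 bases) this longest run is shorter than 6 bases. The windows are shown for members with large and with small differences between the groups.
Rpl35, chr2:39005112-39005161, minus strand: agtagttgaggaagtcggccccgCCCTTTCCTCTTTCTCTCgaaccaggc
Rps18, chr17:33955646-33955695, minus strand: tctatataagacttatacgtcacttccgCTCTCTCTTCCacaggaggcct
Rps7, chr12:28635934-28635983, minus strand: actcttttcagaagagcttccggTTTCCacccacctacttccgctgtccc
Rpl38, chr11:114668550-114668599, plus strand: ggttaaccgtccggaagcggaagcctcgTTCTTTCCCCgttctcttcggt
Rpl7a, chr2:26910777-26910826, plus strand: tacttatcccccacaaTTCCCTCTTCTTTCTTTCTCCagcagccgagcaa
Rps9, chr7:3704011-3704060, plus strand: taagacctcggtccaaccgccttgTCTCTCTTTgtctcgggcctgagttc
Rplp0, chr5:115559437-115559486, plus strand: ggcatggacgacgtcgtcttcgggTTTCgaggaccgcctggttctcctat
Rpl22, chr4:152324406-152324455, plus strand: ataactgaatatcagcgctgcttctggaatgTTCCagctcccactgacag

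Long runs stood in members from both ends of the order of fold changes: Rpl7a has 21 bases and Rpl35 has 18. The 32 tested members with a run of at least 6 bases had a median log2 fold change (SRSF1KO over WT) of −0.403, and the 27 tested members with a shorter run had −0.435. The annotated start may differ from the start used in thymocytes.

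Each library held between 36026006 and 38985285 counts. Srsf1, the targeted gene, stood at 96.9, 122.7 and 103.1 CPM (counts scaled to a common library size with TMM factors) in the WT libraries and at 42.6 and 30.9 CPM in the SRSF1KO libraries, or −1.55 ± 0.19 (SE) as a log2 fold change, with an adjusted p of 0.0483 in edgeR's quasi-likelihood test. Without any 1 library that p was 0.0509 to 0.220. The 11 T cell and gate markers summed to 12170 to 13388 CPM in WT and 11934 to 13638 CPM in SRSF1KO. Markers of double-positive cells before selection (7 genes, including Rag1, Rag2 and Dntt) summed to 2113 to 2523 CPM in WT, and to 4539 and 3147 CPM in SRSF1KO replicates 1 and 2. The 5 markers of mature single-positive cells summed to 1158 to 1328 CPM in WT and to 686 and 984 CPM in SRSF1KO. The 7 NK and γδ T cell markers summed to 238 to 257 CPM in WT and 141 to 144 CPM in SRSF1KO. Of that sum Nkg7 held 165.9 to 186.6 CPM in WT and 24.97 and 55.2 CPM in SRSF1KO, while Trdc and Gzma were higher in both SRSF1KO libraries than in all WT libraries (3 of the 6 tested genes were negative and 3 positive). The 5 erythroid markers summed to 2.54 to 12.7 and 22.9 to 99.1 CPM. The 6 B cell, 8 myeloid and 5 thymic epithelial markers summed to 492 to 567, 61.7 to 81.2 and 14.1 to 14.5 CPM in WT, and to 559 to 762, 69.3 to 77.7 and 13.8 to 25.4 CPM in SRSF1KO. Pax5 (B cell), Cd14 and Itgam (myeloid), Ncr1 (NK) and Foxn1 and Krt5 (thymic epithelium) were under 1 CPM in every library. Others of the same lists were detected in every library. Over the 5 libraries Cd79b (B cell) stood at 14.5 to 37.8 CPM and Lyz2 (myeloid) at 46.9 to 55.1 CPM. Tyrobp (NK) stood at 4.23 to 10.3 CPM and Epcam (thymic epithelium) at 12.2 to 20.1 CPM. No marker was at 0 in all 5. The part of these other cells in the ribosomal protein values was not tested.

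Ribosomal protein transcripts made up less of the counts in the SRSF1KO libraries, and both subunits were lower by nearly the same factor. Large subunit members summed to 21329, 25087 and 24180 CPM in WT and to 17948 and 17908 CPM in SRSF1KO. This is 23532 ± 1961 (SD, n = 3) against 17928 ± 28.3 CPM (SD, n = 2), a log2 ratio of −0.392. Small subunit members summed to 15304, 18294 and 17554 CPM in WT and to 12959 and 12781 CPM in SRSF1KO, or 17051 ± 1557 against 12870 ± 126 CPM, a log2 ratio of −0.406. In both subunits the 2 SRSF1KO libraries lay below all 3 WT libraries and close to each other. The ratio of the large to the small subunit sum was 1.394, 1.371 and 1.377 in WT and 1.385 and 1.401 in SRSF1KO, so the groups overlapped in the balance of the subunits. CPM is relative to the rest of the library. In bulk samples fewer cells of a type and less RNA per cell cannot be told apart.

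**Figure D1:**
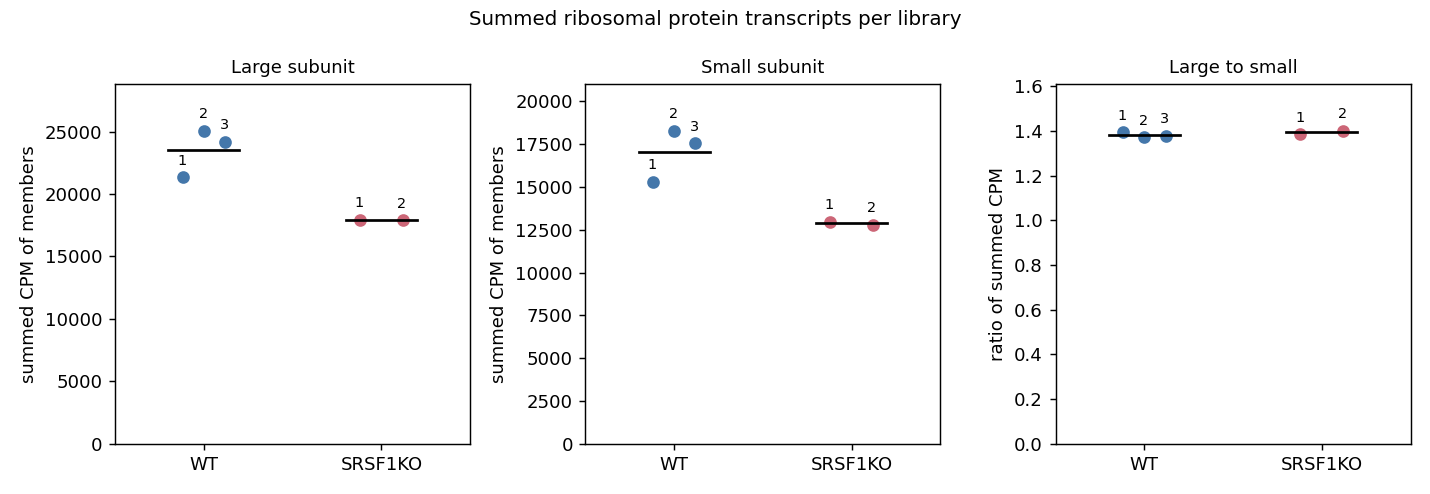
Summed CPM of the large subunit members (left) and the small subunit members (middle) and the ratio of the 2 sums (right) in each library. Points are libraries with their replicate number, and bars are group means; both SRSF1KO libraries lie below all WT libraries in the sums (17908 and 17948 CPM for the large subunit), while the ratios overlap between 1.371 and 1.401.

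Members were counted at 3.73%, 4.33% and 4.12% of all counts in WT and at 3.09% and 3.04% in SRSF1KO. Rows of pseudogenes named after members (296 rows with the suffix -ps) held 0.0244%, 0.0280% and 0.0261% in WT and 0.0194% and 0.0188% in SRSF1KO. The 95% Wilson intervals of these shares, which cover counting error only, were at most 0.0132 percentage points wide. Of these pseudogene rows 106 were tested and 0 were called by edgeR, DESeq2 or limma-voom (5 lower and 0 higher at an unadjusted p under 0.05). Their median log2 fold change was −0.451, close to that of the members. Many ribosomal protein genes have near-identical processed copies, and how the authors counted reads shared with them is not stated in the labels, so single members' levels are uncertain to that extent. With each member pooled with its -ps rows, 5 members were again called lower.

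Of the 81 members, 79 passed the filter on low counts and were tested among 17351 genes; Rpl3l and Rpl10l did not. After adjustment over all genes, 5 members fell in SRSF1KO (Rpl35, Rpl36, Rpl32, Rps18 and Rps7) and 0 rose (edgeR, adjusted p under 0.05). Over all genes tested 37 fell, which is 0.213%, and 9 rose, which is 0.0519%. At an unadjusted p under 0.05, 65 members were lower and 0 higher, where 8.45% of all genes were lower. Genes with high counts passed more often than all genes. Of the 2363 genes averaging 100 CPM or more, 364 were lower at an unadjusted p under 0.05. Of these 2363, edgeR called 22 lower, DESeq2 182 and limma-voom 44. DESeq2 called 41 members lower and 0 higher, with 3.65% of all genes called lower, and limma-voom called 10 lower and 0 higher, with 0.409% of all genes called lower.

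The direction was nearly uniform. A total of 76 tested members had a negative log2 fold change and 3 a positive one. In 68 both SRSF1KO libraries lay below all WT libraries, as they did for 17.8% of all genes tested. Among the 2363 genes averaging 100 CPM or more, they did so for 582. The median over the 79 tested members was −0.409 (quartiles −0.507 and −0.295), beside −0.006 over all genes tested and −0.012 over the 2363 genes averaging 100 CPM or more. The shift of a typical member is a small one, and most members did not pass the test alone. Leaving out any 1 of the 5 libraries, or scaling by DESeq2's size factors, left 0 members called by edgeR; 45 to 70 members were lower at an unadjusted p under 0.05 without 1 library, and 58 with DESeq2's size factors. The median over each subunit's members stayed between −0.487 and −0.343 in these fits.

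**Figure D2:**
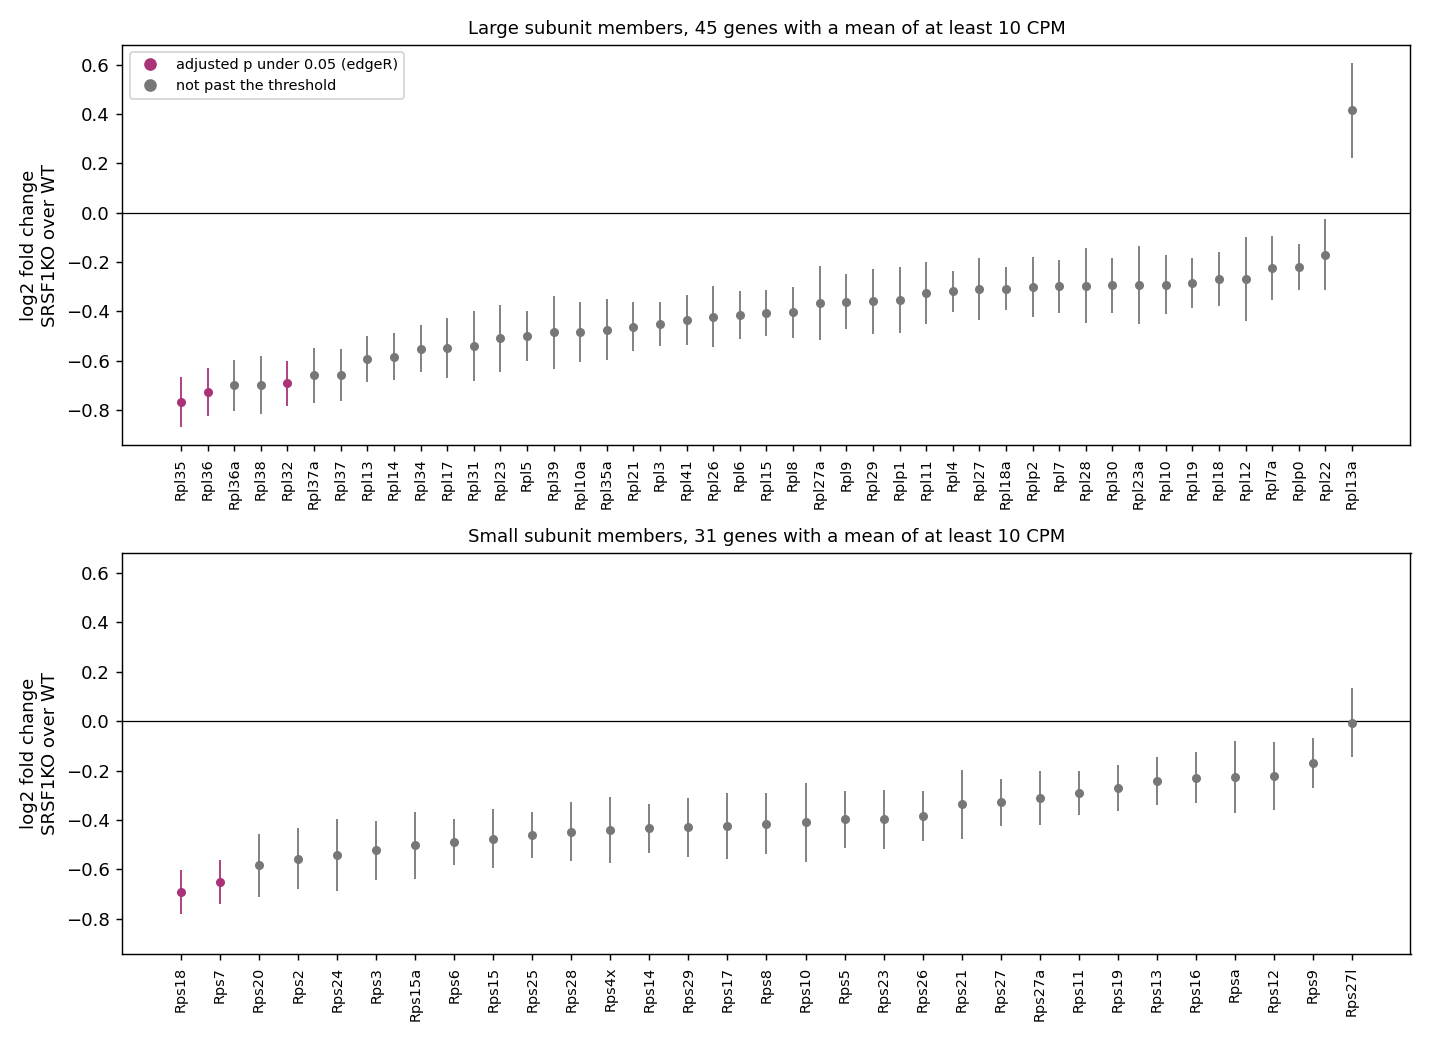
Log2 fold change (SRSF1KO over WT, edgeR) of the 45 large and 31 small subunit members with a mean of at least 10 CPM, ordered by size; points are estimates and bars are 1 SE. The 5 coloured members passed an adjusted p of 0.05, and Rpl13a (0.41) is the 1 member here above 0.

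By subunit, 3 of 48 tested large subunit members fell and 45 of 48 were negative, with a median of −0.406. In the small subunit 2 of 31 fell and 31 of 31 were negative, with a median of −0.415. DESeq2 called 24 and 17 of them lower. Of the 76 members with a mean of at least 10 CPM, 21 lay below −0.5, 51 between −0.5 and −0.2, and 4 above −0.2. All 21 below −0.5 were called lower by DESeq2 and 5 of them by edgeR.

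The large subunit members that fell were Rpl35, Rpl36 and Rpl32. Rpl35 (ENSMUSG00000062997.6, chromosome 2, 39001581 to 39005131, GRCm38), a protein at the rim of the tunnel through which the nascent chain leaves, stood at 219.6, 204.0 and 231.6 CPM in WT and at 129.7 and 127.0 CPM in SRSF1KO. The mean in WT was 218.4 ± 13.8 CPM (SD, n = 3), and in SRSF1KO 128.4 ± 1.91 CPM (SD, n = 2). On the log2 scale this is −0.77 ± 0.10 (SE). Its SRSF1KO libraries were far below the lowest WT library and almost equal. Rpl36 (ENSMUSG00000057863.5, chromosome 17, 56610094 to 56614246), a eukaryote-specific protein of the 60S subunit, stood at 282.4, 312.4 and 309.1 CPM in WT and at 185.4 and 179.1 CPM in SRSF1KO, a log2 fold change of −0.73 ± 0.10. Rpl32 (ENSMUSG00000057841.5, chromosome 6, 115805514 to 115808743), likewise on the large subunit, stood at 680.2, 749.0 and 765.5 CPM in WT and at 453.9 and 452.3 CPM in SRSF1KO, a log2 fold change of −0.69 ± 0.09. The WT libraries of these genes differed by far less than the distance between the groups.

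The small subunit members that fell were Rps18 and Rps7. Rps18 (ENSMUSG00000008668.14, chromosome 17, 33951998 to 33955665), a protein of the subunit's head that contacts the 60S subunit, stood at 561.7, 596.5 and 621.6 CPM in WT and at 363.1 and 371.0 CPM in SRSF1KO, a log2 fold change of −0.69 ± 0.09. Rps7 (ENSMUSG00000061477.4, chromosome 12, 28630847 to 28635953), a protein of the body of the subunit that is needed to process pre-18S rRNA, stood at 884.6, 987.0 and 970.2 CPM in WT and at 589.3 and 616.9 CPM in SRSF1KO, a log2 fold change of −0.65 ± 0.09. All 5 members had an edgeR adjusted p of 0.0483, just past the threshold, and without any 1 library it was 0.0653 to 0.223. The coefficient of variation among WT libraries was 5.07% to 6.34% in these 5 members, against a median of 10.2% over the 76 members with at least 10 CPM.

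Just outside the threshold, Rpl36a, which lies near the exit site for tRNA, stood at 167.5, 184.6 and 177.5 CPM in WT and at 111.0 and 106.3 CPM in SRSF1KO (log2 fold change −0.70, edgeR adjusted p = 0.0568). Rpl38, known for its part in the translation of Hox mRNAs, stood at 85.5, 91.1 and 86.9 CPM in WT and at 53.9 and 54.2 CPM in SRSF1KO (−0.70, adjusted p = 0.0720). For both, the groups were as cleanly apart as for the members that passed. Rpl37, Rpl37a, Rpl13 and Rpl14 had log2 fold changes of −0.66, −0.66, −0.59 and −0.58, with adjusted p-values of 0.0637 to 0.0720. In all, 13 members had an edgeR adjusted p under 0.1. The large subunit members with at least 10 CPM that are not named one by one lay between Rpl34 (−0.55) and Rpl18 (−0.27).

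**Figure D3:**
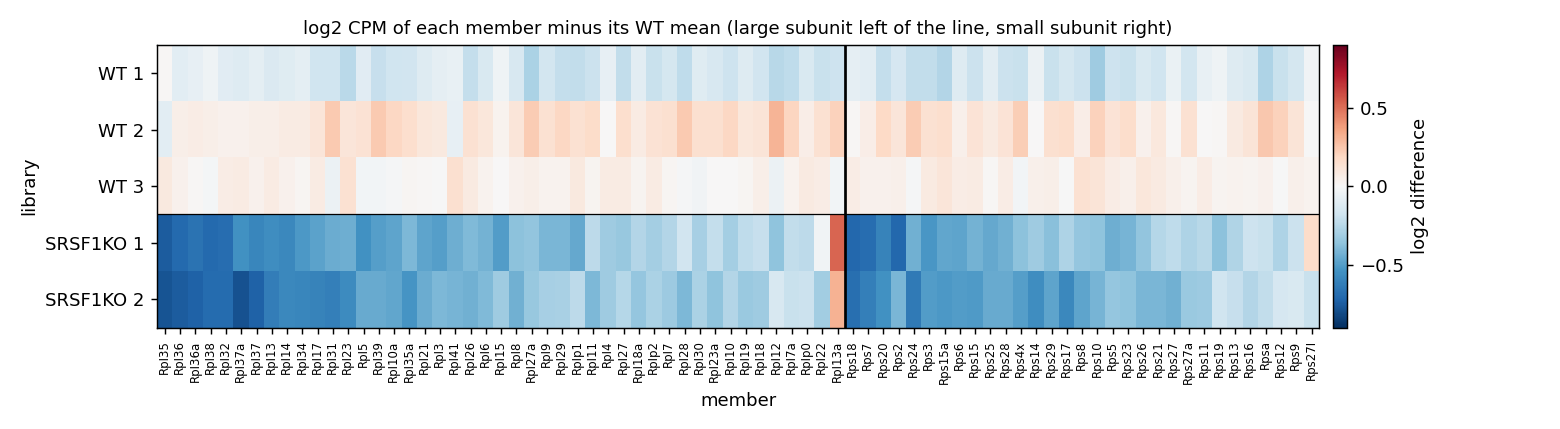
Log2 CPM of each of the 76 members with a mean of at least 10 CPM minus that member's mean over the WT libraries, by library (rows) and member (columns, ordered by fold change within each subunit). WT replicate 1 is below the WT mean in 75 of 76 members, and the SRSF1KO libraries are further below in nearly all, with Rpl13a as the clearest exception.

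The WT libraries were not alike in these genes. In WT replicate 1, 75 of the 76 members with at least 10 CPM were below their WT mean, against 3 in WT replicate 2 and 14 in WT replicate 3. The median log2 deviation from the WT mean was −0.160, 0.114 and 0.037 in the WT libraries, in order of replicate, and −0.401 and −0.417 in those of SRSF1KO. Both SRSF1KO libraries lay below the lowest WT library and close to each other, but their distance to it was smaller than the range of the WT libraries. The summed markers of double-positive cells before selection were above all WT libraries in both (4539 and 3147 CPM), and their part in these values was not tested. The abundant noncoding transcripts Gm26917 and CT010467.1 together took 2.69%, 4.02% and 4.05% of counts in WT and 6.02% and 5.55% in SRSF1KO. WT replicate 1 was thus the lowest WT library for both these transcripts and the members. With both transcripts removed, the members' median was −0.393 for the large and −0.402 for the small subunit, and the same number of members, 5, was called.

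The P stalk, the flexible arm of the large subunit that recruits translation factors, was among the groups with the smaller differences. Its base Rplp0 stood at 2221, 2551 and 2583 CPM in WT and at 2075 and 2135 CPM in SRSF1KO (log2 fold change −0.22). Rplp1, a tip protein, stood at 569.3, 731.0 and 706.3 CPM in WT and at 482.1 and 565.5 CPM in SRSF1KO (−0.35). Rplp2, its partner at the tip, stood at 221.9, 278.2 and 267.5 CPM in WT and at 206.4 and 208.8 CPM in SRSF1KO (−0.30). In these 3 the groups did not overlap, but the gap to WT replicate 1 was narrow. Rpl12, which sits at the base of the stalk, stood at 188.8, 277.4 and 216.0 CPM in WT and at 174.6 and 203.4 CPM in SRSF1KO (−0.27), and its groups overlapped. Of the 4, 0 were called by edgeR, DESeq2 or limma-voom, 3 were lower at an unadjusted p under 0.05, and the median was −0.284.

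Rpl5 and Rpl11 bind 5S rRNA before it joins the large subunit, and together they hold Mdm2, the ligase that degrades p53. Rpl5 stood at 374.5, 438.3 and 394.1 CPM in WT and at 275.7 and 293.2 CPM in SRSF1KO (log2 fold change −0.50, edgeR adjusted p = 0.117). Rpl11 stood at 491.4, 628.7 and 571.9 CPM in WT and at 476.7 and 423.1 CPM in SRSF1KO (−0.33, adjusted p = 0.299). Rpl5 was well apart between the groups, while Rpl11 in SRSF1KO replicate 1 came near WT replicate 1. By edgeR and limma-voom 0 of the 2 were called, and DESeq2 called 1, Rpl5.

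Apart from the P stalk (median −0.284), groups by position on the ribosome and by conservation had similar medians. The 7 tested proteins at the rim of the exit tunnel (Rpl17, Rpl19, Rpl23a, Rpl26, Rpl31, Rpl35 and Rpl39) had a median log2 fold change of −0.485, and edgeR called Rpl35 alone and DESeq2 called 4. In the small subunit, the 14 proteins of the head had a median of −0.427 with 1 called by edgeR (Rps18) and 8 by DESeq2, and the 16 of the body −0.406 with 1 (Rps7) and 9. The 33 members whose proteins have counterparts in bacteria had a median of −0.398 with 2 called by edgeR and 19 by DESeq2, and the other 43 members with at least 10 CPM had −0.416 with 3 and 22. These medians, without that of the P stalk, lie within 0.1 of each other and were not tested against each other.

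Other members of the small subunit are known from their own biology. Rps6, the target of the S6 kinases, stood at 725.9, 812.6 and 824.4 CPM in WT and at 566.1 and 556.1 CPM in SRSF1KO (log2 fold change −0.49, edgeR adjusted p = 0.0964). Rps19, the protein most often mutated in Diamond-Blackfan anaemia, stood at 796.6, 824.4 and 831.1 CPM in WT and at 632.4 and 722.8 CPM in SRSF1KO (−0.27, adjusted p = 0.255). Both were lower in each SRSF1KO library than in any WT library, without passing the test. The remaining small subunit members lay between Rps20 (−0.58) and Rps9 (−0.17), apart from Rps27l.

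The groups overlapped in 10 of the 79 tested members, and in 11640 of all 17351 genes tested. Rpl22 was one of them, at 111.5, 140.8 and 134.4 CPM in WT and 125.7 and 103.5 CPM in SRSF1KO (log2 fold change −0.17, edgeR adjusted p = 0.675). Rps9, a small subunit protein that acts in decoding accuracy, stood at 994.0, 1202 and 1149 CPM in WT and at 971.1 and 1010 CPM in SRSF1KO (−0.17). Rpsa, also known as the laminin receptor precursor, stood at 645.1, 924.7 and 805.2 CPM in WT and at 680.9 and 672.2 CPM in SRSF1KO (−0.23). In Rpsa, WT replicate 1 was below both SRSF1KO libraries, and in Rps9 it lay between them. Rpl7a, Rps12 and Rpl28 had log2 fold changes of −0.22, −0.22 and −0.30, and WT replicate 1 was their lowest WT library too. The other overlapping members, beside Rpl12, were Rps27l, Rpl24 and Rpl39l.

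Rpl13a, a large subunit protein also known for translational silencing after interferon γ, was the only tested member higher in both SRSF1KO libraries than in all WT libraries. It stood at 24.1, 31.6 and 26.9 CPM in WT and at 39.4 and 34.0 CPM in SRSF1KO (log2 fold change 0.41 ± 0.19 SE, edgeR adjusted p = 0.385), and it did not pass the test. The gene also hosts small nucleolar RNAs in its introns. Rpl24 was counted with only 88, 105 and 90 reads in WT and 73 and 120 in SRSF1KO. Its log2 fold change of 0.10 carries an SE of 0.51. Reads shared with copies cannot be told apart in Rpl13a or in Rpl24.

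Paralogs in the rule that are known from other tissues were hardly detected. Rpl10l, a testis paralog of Rpl10, had 0 counts in all 5 libraries, which allows up to 3 counts in each. Rpl3l, the paralog of Rpl3 in heart and skeletal muscle, had 26, 0 and 0 counts in WT and 6 and 0 in SRSF1KO. Rpl39l, a paralog of Rpl39 known from testis, had 7, 18 and 41 counts in WT and 8 and 39 in SRSF1KO. Rpl32l had 58, 52 and 57 counts in WT and 22 and 25 in SRSF1KO (log2 fold change −1.17 ± 0.71 SE, edgeR adjusted p = 0.518).

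Among paralogs that were well detected, the genes of a pair could differ in their fold changes. Rpl22l1, the paralog of Rpl22 that the naming rule leaves out (ENSMUSG00000039221.10, chromosome 3, 28805508 to 28807424, GRCm38), stood at 65.0, 74.8 and 68.8 CPM in WT and at 29.7 and 32.7 CPM in SRSF1KO. It fell by 1.16 on the log2 scale (SE 0.15, edgeR adjusted p = 0.0483), and without any 1 library the adjusted p was 0.0615 to 0.220. The ratio of Rpl22l1 to Rpl22 CPM was 0.582, 0.531 and 0.512 in WT and 0.236 and 0.316 in SRSF1KO (exact permutation test, two-sided, p = 0.2, the smallest that 3 against 2 samples allow). Both SRSF1KO ratios were far below all WT ratios. Rps27l, a p53 target and paralog of Rps27, stood at 83.3, 85.1 and 87.3 CPM in WT and at 95.7 and 74.1 CPM in SRSF1KO (−0.01, adjusted p = 0.996), with a sign that turned in 9 of the alternative fits. Rps27 stood at 770.5, 809.3 and 829.6 CPM in WT and at 683.9 and 594.8 CPM in SRSF1KO (−0.33, adjusted p = 0.197). The ratio of Rps27l to Rps27 was 0.108, 0.105 and 0.105 in WT and 0.140 and 0.125 in SRSF1KO (exact permutation test, two-sided, p = 0.2).

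**Figure D4:**
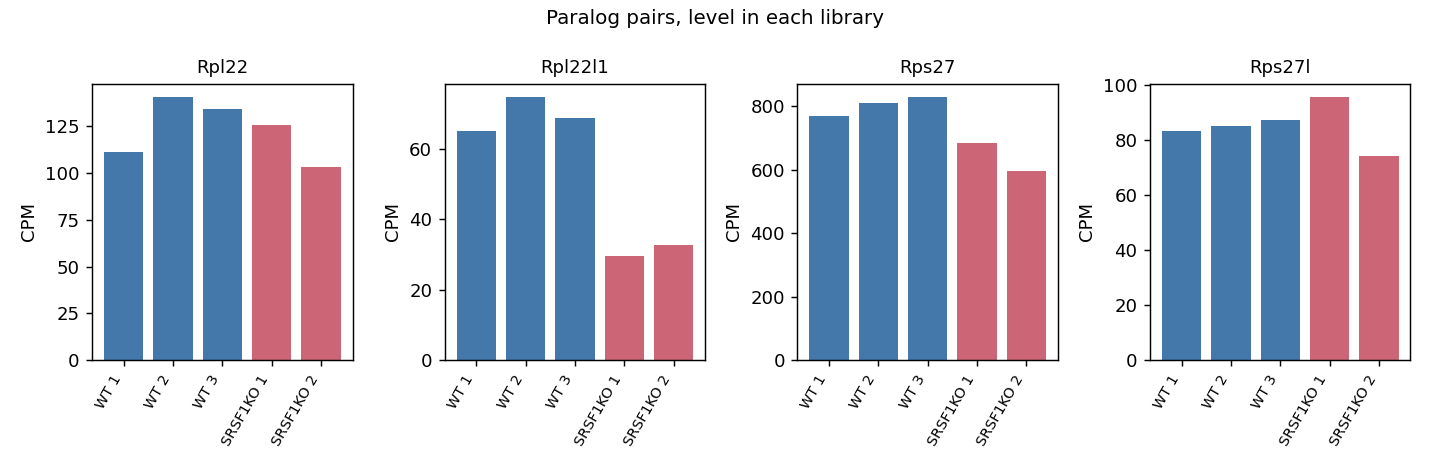
CPM of Rpl22, its paralog Rpl22l1, Rps27 and its paralog Rps27l in each of the 3 WT (blue) and 2 SRSF1KO (red) libraries; each bar is 1 library. Rpl22l1 drops from 65.0 to 74.8 CPM in WT to 29.7 and 32.7 CPM in SRSF1KO, while the groups overlap for Rpl22 and Rps27l.

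The other genes of ribosomal proteins or of their paralogs described here that the naming rule leaves out were Rps3a1, Fau, Rack1, Rpl7l1, Rpl36al and Rps27rt. Rps3a1, a small subunit protein, stood at 851.7, 1057 and 975.3 CPM in WT and at 717.0 and 753.8 CPM in SRSF1KO (log2 fold change −0.39, edgeR adjusted p = 0.187). Rack1, a scaffold for signalling proteins on the head of the small subunit, stood at 390.4, 512.0 and 447.8 CPM in WT and at 345.9 and 373.7 CPM in SRSF1KO (−0.32, adjusted p = 0.314). Both were lower in each SRSF1KO library, like most members. Fau, which encodes Rps30 as a fusion, had −0.22, Rpl7l1 −0.03, Rpl36al −0.58 and Rps27rt −0.46. Together with Rpl22l1 these are 7 genes, of which Rpl22l1 alone was called by edgeR, DESeq2 called 2, and the median was −0.387.

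The lists of genes that act with ribosomal proteins had medians nearer to 0, which were not tested against that of the members. Of 20 translation factors and related genes whose mRNAs carry TOP motifs, 19 were negative, 1 was called (edgeR) and the median log2 fold change was −0.209. DESeq2 called 2 lower, where it called 3.65% of all genes lower. At an unadjusted p under 0.05 in edgeR, 7 were lower and 0 higher, where 8.45% of all genes were lower. In 14 both SRSF1KO libraries lay below all WT libraries, as they did for 17.8% of all genes tested. The gene called by edgeR was Eef1g (ENSMUSG00000071644.10, chromosome 19, 8967041 to 8978180), a subunit of the factor that recharges eEF1A with GTP. It stood at 490.4, 486.8 and 516.5 CPM in WT and at 266.2 and 270.5 CPM in SRSF1KO, a log2 fold change of −0.89 ± 0.09 (adjusted p = 0.0299, and 0.0351 to 0.220 without any 1 library). Eef1a1, which brings aminoacyl-tRNA to the ribosome, had −0.18, and Eef2, which drives translocation, 0.02. Of 17 genes of the mTOR pathway, LARP family and Myc, edgeR and limma-voom called 0, DESeq2 called 1 lower, 1 was lower and 1 higher at an unadjusted p under 0.05, and the median was 0.082. In this list 5 genes were negative and 12 positive. Myc, a driver of ribosomal protein gene transcription, stood at 96.8, 104.3 and 90.02 CPM in WT and at 46.6 and 71.2 CPM in SRSF1KO (−0.72, edgeR adjusted p = 0.169). Rptor, the other of its 2 leading genes, stood at 54.7, 65.5 and 93.9 CPM in WT. In SRSF1KO it stood at 121.3 and 91.6 CPM (0.58, edgeR adjusted p = 0.330), and its groups overlapped.

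**Figure D5:**
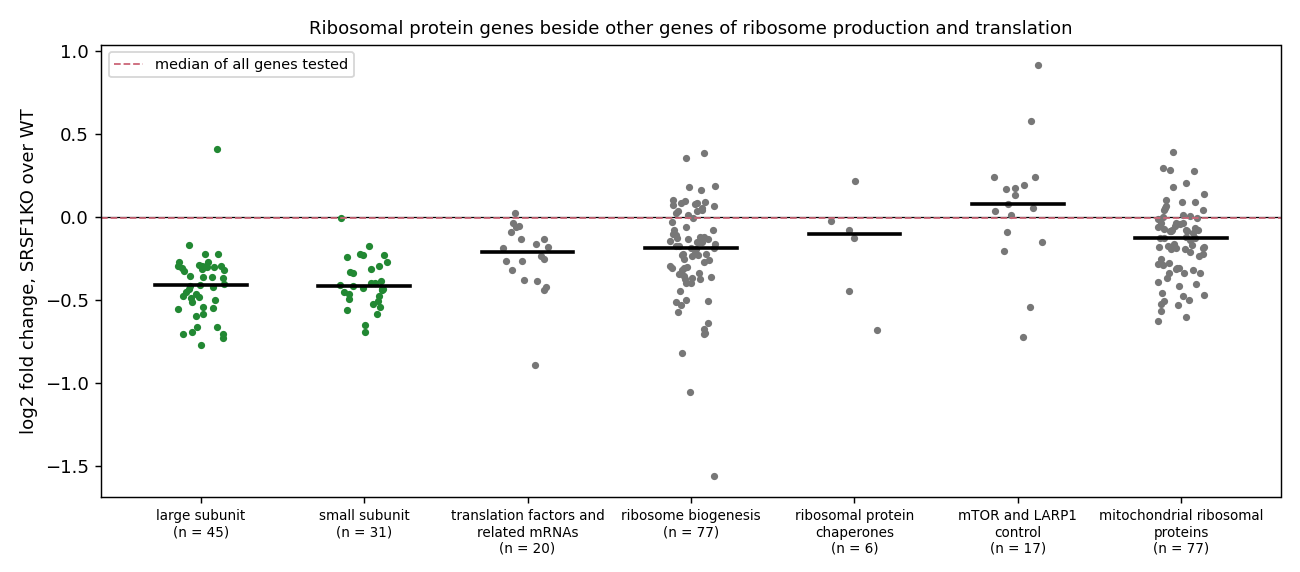
Log2 fold change (SRSF1KO over WT) of large and small subunit members with a mean of at least 10 CPM, of translation factors and related mRNAs, ribosome biogenesis factors, ribosomal protein chaperones, mTOR and LARP1 control genes and mitochondrial ribosomal proteins; points are genes, bars are medians and the dashed line is the median of all genes tested. The subunit medians (−0.41 over 45 genes and −0.42 over 31 genes) lie below those of the other lists, which run from −0.21 to 0.08.

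Factors that build ribosomes had a median nearer to 0. Of 77 tested ribosome biogenesis genes, edgeR and limma-voom called 0 and DESeq2 called 8 lower, where DESeq2 called 3.65% of all genes lower. At an unadjusted p under 0.05, 17 were lower and 2 higher, where 8.45% of all genes were lower. The median log2 fold change was −0.184. Rrp12, which takes part in the export of both subunits, stood at 49.5, 29.0 and 38.4 CPM in WT and at 13.5 and 12.9 CPM in SRSF1KO (−1.56 ± 0.26 SE, edgeR adjusted p = 0.0720). Polr1b, a subunit of RNA polymerase I, stood at 35.3, 29.7 and 40.4 CPM in WT and at 16.8 and 17.1 CPM in SRSF1KO (−1.05, adjusted p = 0.104). Both had groups that were clearly apart. Of 6 tested chaperones that hold single ribosomal proteins before assembly, edgeR and limma-voom called 0 and DESeq2 called 1, 1 was lower at an unadjusted p under 0.05, and the median was −0.102. Tsr2, the chaperone of Rps26, stood at 43.0, 41.6 and 39.4 CPM in WT and at 23.6 and 28.1 CPM in SRSF1KO (−0.68, adjusted p = 0.154). Grwd1, the chaperone of Rpl3, had −0.45 (adjusted p = 0.366).

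The proteins of the mitochondrial ribosome, a separate particle that translates mitochondrial mRNAs, were also mostly negative but by less. Of 77 tested, 61 were negative, with a median of −0.127, and in 28 both SRSF1KO libraries lay below all WT libraries. Over all 17351 genes tested 8788 were negative, and in 17.8% both SRSF1KO libraries lay below all WT libraries. By edgeR and limma-voom 0 were called, by DESeq2 2 were called lower, and 11 were lower and 1 higher at an unadjusted p under 0.05. Over all genes tested DESeq2 called 3.65% lower, and 8.45% were lower at an unadjusted p under 0.05. Cytosolic members had a median further below 0 than mitochondrial ones, −0.409 against −0.127; this difference was not tested.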

How the data were processed

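Members, gene lists and comparisons were chosen with earlier results of these data known. Raw read counts per gene were used as the authors deposited them, without normalisation, for 3 WT and 2 SRSF1KO Smart-seq2 libraries, and 4 CLIP-seq samples were not analysed here. The submitters' processing notes name, without roles, the build mm10 and Bowtie2 2.1.0, DESeq2 1.20.0, HTSeq 0.6.1, FastQC 0.11.5, HOMER 4.9.1, cutadapt 1.17 and Trim Galore. Not given in the sources used here are which tool aligned the RNA-seq reads, the annotation release and the strand setting. Overlapping and antisense genes cannot be told apart. Symbols were matched for 53620 of 53715 rows. Coordinates and start windows came from RefSeq (GRCm38.p6). Libraries differed beyond sampling noise (chi-square per degree of freedom 44.9 to 134).

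The main test was edgeR 4.0.16 in R 4.3.3 (robust quasi-likelihood fit) after TMM scaling and filterByExpr, with group as the only term and Benjamini-Hochberg adjustment over 17351 genes, called at 0.05. Alternatives were DESeq2 1.42.0, limma-voom (limma 3.58.1), other scalings and filters, a replicate block and leaving out each library. The fit was tested on simulated data. Named genes were Srsf1, called members, all members of the P stalk, the 5S particle, the tissue paralogs and the genes outside the rule, the members with the 6 largest and 6 smallest falls, overlapping members, and the called or 2 leading genes of the other lists. Rpl37, Rpl37a, Rpl13, Rpl14, Rps6, Rps19, Rps20, Rps27, Rpl32l, Eef1a1 and Eef2 were added after their values were seen. A gene in each of 2 lists (proteins outside the rule, erythroid markers) is not reported here. No gene lengths were used, so levels are not compared between genes.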

Additional observations from a re-analysis of the deposited data

How the results depend on the processing

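The members' medians and sums kept their direction in every alternative, with subunit medians between −0.487 and −0.343, but the number of genes past the threshold moved widely. The main test called 46 genes, 5 of them members. Scaling by DESeq2's size factors called 10 genes and 0 members (58 members lower at an unadjusted p under 0.05), no filter on low counts 544 and 30, a mean of at least 5 CPM 376 and 21, DESeq2 1016 and 41, and limma-voom 94 and 10. With the replicate number as a block (WT and SRSF1KO replicates 1 and 2 share numbers, which the labels do not tie to a shared animal or day), 0 genes and 0 members were called, with 39 members lower at an unadjusted p under 0.05; the deviations of same-numbered libraries from their group means correlated at −0.024 and 0.035. Leaving out 1 library at a time gave 0 to 88 genes and 0 members called (45 to 70 members lower unadjusted), including 11 genes without SRSF1KO replicate 1. The causes were not tested. Signs turned for genes near 0 or with few counts. Rps27l was 0.0119 with DESeq2's size factors and with DESeq2, 0.0172 with the upper quartile, 0.0016 with no filter, 0.0142 with the 5 CPM minimum, 0.0001 with the block and 0.008 without Gm26917 and CT010467.1. Over the fits that leave out 1 library, Rps27l ranged from −0.201 to 0.186, Rpl39l from −1.36 to 0.954, Rpl7l1 from −0.0633 to 0.0255 and Rpl24 from −0.293 to 0.4179. Where 1 SRSF1KO library is left, its spread is taken to equal that of the WT libraries. With 3 and 2 samples the exact test on a single ratio cannot go below p = 0.2.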

Other observations

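The members on the X chromosome are Rpl10, a late joiner of the large subunit, Rpl36a, Rpl39 and Rps4x. Both SRSF1KO libraries lay below all WT libraries in all 4, with log2 fold changes of −0.29, −0.70, −0.49 and −0.44 (edgeR). Of the 4, edgeR called 0, DESeq2 2 and limma-voom 1, and 4 were lower at an unadjusted p under 0.05. The same order of libraries held in 68 of all 79 tested members and in 17.8% of all genes tested. Of the 79, edgeR called 5 lower, DESeq2 41 and limma-voom 10, and 65 were lower at an unadjusted p under 0.05. Xist, the RNA of the inactive X chromosome, stood at 497.0, 37.6 and 383.9 CPM in WT and at 7.82 and 598.8 CPM in SRSF1KO, so it varied within both groups. Rpl39 stood at 108.7, 148.0 and 123.4 CPM in WT and at 89.3 and 91.8 CPM in SRSF1KO. WT replicate 2, the WT library with the least Xist, was the highest WT library for all 4 members. It was also the highest WT library for the summed members of both subunits. A link between Xist and the members was not tested.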
